A study of Mus musculus with 24 samples.

Results

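The genes described here encode the proteins of the cytoplasmic ribosome. They were chosen by symbol alone, as protein-coding mouse genes named Rpl or Rps with a number, the stalk genes Rplp0, Rplp1 and Rplp2, and Rpsa, and 82 of the 36605 genes in the count table met the rule. The reference annotation (GENCODE M21 on GRCm38) holds 83 such genes, and Rpl10l was not analysed here. Of the 82, 77 are core ribosomal protein genes, 46 of the large and 31 of the small subunit, and 5 are paralogs of a core gene (Rpl3l, Rpl7l1, Rpl22l1, Rpl39l and Rps27l). Counts were high enough to be kept over all mice for 81 of them, and the exception was Rpl39l. They lie on 19 chromosomes.

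The cytoplasmic ribosome is made of a small subunit that reads the mRNA and a large subunit that joins the amino acids, and most ribosomal proteins are needed in equal amounts because each ribosome holds a single copy of them. Their mRNAs are short and abundant in every cell, and most begin with a run of pyrimidines, the 5′ terminal oligopyrimidine motif, through which mTOR and the RNA-binding protein LARP1 control their translation. In neurons ribosomes are found in the cell body and in dendrites and axons, where local protein synthesis serves synaptic plasticity.

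Hippocampal RNA came from 24 adult mice, 3 males and 3 females of each of 4 genotypes. Egr1wt NesCre- mice were wild type, Egr1wt NesCre+ mice carried Cre recombinase driven by the Nestin promoter (B6.Cg-Tg(Nes-Cre)1Kln/J), Egr1f NesCre- mice carried floxed Egr1 alleles (strain Egr1_tm1a_A04, C57BL/6 N-Egr1/Tcp), and Egr1f NesCre+ mice carried both and are called Egr1cKO. Nestin is expressed in neural precursors, so recombination reaches neurons and macroglia, while microglia, endothelium and blood cells keep the gene. The mouse numbers of the Egr1wt and the Egr1f mice come from separate ranges, so a difference between Egr1f and Egr1wt mice cannot be told apart from one between these series of mice. The labels name the cell type as endocrine, but marker genes of pituitary endocrine cells summed to between 0.899 and 3.84 CPM per mouse (counts scaled to library size), with Fshb, Cga, Gh and Prl under 1 CPM in every mouse, and the neuron markers summed to between 3910 and 4930 CPM.

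The start regions of a few of the genes are shown because the pyrimidine run at the first transcribed base is the feature that the family is known by. Sequences are from RefSeq on GRCm38.p6, 5′ to 3′ on the coding strand, with 30 bases before the annotated start and 20 from it on. Capitals mark the longest run of at least 6 pyrimidines that touches or lies within 5 bases of the start. Rps6 is at chr4:86857348-86857397 on the minus strand, Rplp2 at chr7:141447621-141447670 on the plus strand, Rps24 at chr14:24490648-24490697 on the plus strand and Rpl34 at chr3:130730318-130730367 on the minus strand. Rpl34 and Rps24 each have another annotated start that is not printed. The stretch at chr3:130730379-130730428 has a run of 6, and that at chr14:24490723-24490772 has none. Rpsa, at chr9:120127736-120127785 on the plus strand, is shown as a member without such a run in this window, and Rpl22l1, at chr3:28805478-28805527 on the plus strand, as a paralog with one.
Rps6: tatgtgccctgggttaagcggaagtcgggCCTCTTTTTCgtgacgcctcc
Rplp2: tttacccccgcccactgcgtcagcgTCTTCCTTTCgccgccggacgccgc
Rps24: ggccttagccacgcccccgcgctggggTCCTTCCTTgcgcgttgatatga
Rpl34: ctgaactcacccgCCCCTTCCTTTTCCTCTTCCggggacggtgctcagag
Rpsa: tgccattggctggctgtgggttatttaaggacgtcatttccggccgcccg
Rpl22l1: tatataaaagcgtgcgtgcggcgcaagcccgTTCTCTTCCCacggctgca

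RefSeq promoter windows of 300 bases, 250 before the start and 50 from it on, were found for 62 of the 82 genes, 74 windows in all, and were set beside all 32851 windows of the same length. A pyrimidine run at the start was present in 33 of the 74 windows (44.6%) and in 21% of all windows. CCGGAAG, the core letters bound by ETS factors, stood in 27 windows (36.5%, against 8.86% of all), and AANATGGCG, letters bound by YY1, in 10 (13.5%, against 2.38%). GGGCGG, bound by SP1, stood in 44 windows (59.5%, against 35.7%). GCGNGGGCG, the letters that EGR1 itself binds, stood in 9 windows (12.2%, against 5.55%). TATAAA was in 7 windows (9.46%, against 13.6%) and CCAAT in 22 (29.7%, against 37.4%). All letters were searched on both strands, and the SP1 and EGR1 letters can share bases. These are matches of letters only, and several genes have more than 1 window.

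Levels were compared between genes as CPM per kb of transcript. The median of the 77 core genes was 189 CPM per kb over the 24 mice, with quartiles of 122 and 232. Rplp1, a protein of the acidic stalk that recruits elongation factors, was highest at 831 CPM per kb, followed by Rps24 at 397, Rps21 at 372, Rps15 at 370 and Rpl13 at 366. The small subunit genes had a median of 205 CPM per kb and the large subunit genes 165. Rps15a and Rps20 were at 24.6 and 26.5 CPM per kb, and their annotated transcripts are long for the family, with median lengths of 5130 and 3706 bases, where the core genes have a median of 774.

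At the low end 5 core genes were under 10 CPM, namely Rpl24 at 0.504, Rps10 at 2.61, Rpl23a at 5.45, Rpl13a at 5.86 and Rpl35 at 6.14 CPM. The exons of all 5 overlap another annotated gene, Gm28037 for Rpl24, Gm15420 and RPS10-NUDT3 for Rps10, Tlcd1 for Rpl23a, Gm45713 for Rpl13a and Wdr38 for Rpl35, and a read that fits 2 genes can be dropped in counting. Rpl5, Rpl28 and Rpl30 also overlap another gene, and the 69 core genes that overlap none ran from 24.6 to 831 CPM per kb with a median of 199. The low values of the 5 genes are therefore uncertain as levels. Sequence shared with other places in the annotated transcriptome can also split or drop reads. Of the windows of 100 bases along the transcript, 98.4% of those of Rps27, 91.6% of those of Rpl10 and 91.1% of those of Rpl5 also occur in another annotated gene, while none do for Rps3, Rpl22, Rpl32 and Rps21.

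**Figure D1:**
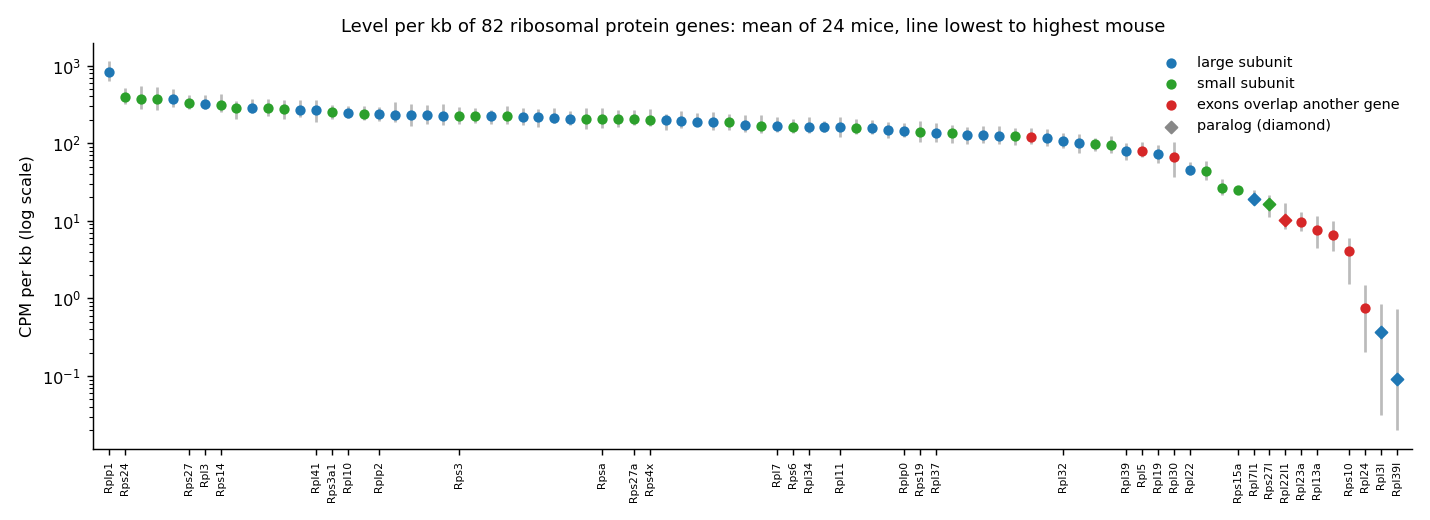
The mean level of each of the 82 genes in CPM per kb of transcript is plotted on a log axis, with a line from the lowest to the highest of 24 mice with colours for the large subunit, the small subunit and genes whose exons overlap another gene, diamonds for the paralogs and names for some of the genes. The quartiles of the core genes are 122 and 232 CPM per kb, and the core genes under 10 CPM are all ones that overlap another gene.

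The paralogs stood well below their partners. Rpl7l1, at 19.3 CPM per kb, was the highest of them, where Rpl7 was at 168. Rps27l was at 16.6 CPM per kb beside Rps27 at 334, and Rpl22l1 at 10.2 beside Rpl22 at 44.8. Rpl3l, the paralog of striated muscle, was at 0.372 CPM per kb beside Rpl3 at 320. Rpl39l, known from the male germ line, was at 0.0917 CPM per kb beside Rpl39 at 79.7, and at 0 in all 6 Egr1wt NesCre- mice.

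Over the 24 mice most of the genes varied together. For each gene the Pearson r of its log2 CPM with the median of the other genes was computed as a description, and the median r over the core genes was 0.931, with 68 of 77 over 0.8. The highest was 0.98 for Rpl13. The lowest was -0.159 for Rpl24, and all 5 core genes under 10 CPM were at or below 0.662. The 4 paralogs that could be tested ran from 0.354 for Rpl3l to 0.742 for Rps27l. The coefficient of variation (CV) over mice had a median of 14% over the core genes. Among the genes over 10 CPM, Rpl30 varied most (CV 29.4%) and Rps15a, the gene with the longest transcript, least (CV 6.58%).

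The summed share of counted reads that fell on the 82 genes was near 1% in every mouse. In Egr1wt NesCre- mice the lowest, median and highest shares were 0.987%, 1.09% and 1.19%, and in Egr1wt NesCre+ mice 0.923%, 1.23% and 1.39%. In Egr1f NesCre- mice they were 1.01%, 1.25% and 1.47%, and in Egr1cKO mice 0.923%, 0.988% and 1.21%. The ranges of all 4 genotypes overlapped. As mean ± SD over 6 mice the shares were 1.09 ± 0.0839%, 1.21 ± 0.166%, 1.22 ± 0.171% and 1.02 ± 0.105%.

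A member level was then taken for each mouse, the median over the 81 genes of log2 CPM minus the mean of the 24 mice. Its lowest, median and highest values were -0.21, -0.05 and 0.09 in Egr1wt NesCre- mice and -0.27, 0.12 and 0.29 in Egr1wt NesCre+ mice. They were -0.13, 0.13 and 0.38 in Egr1f NesCre- mice and -0.26, -0.17 and 0.09 in Egr1cKO mice. Egr1cKO mice were low apart from male replicate 3 at 0.09 and female replicate 1 at -0.02. Each of the control genotypes also held low mice. Male replicate 2 of Egr1wt NesCre+ was the lowest of all 24, and male and female replicate 1 of Egr1f NesCre- stood at -0.13 and -0.12, below the other 4 mice of that genotype, which ran from 0.11 to 0.38.

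**Figure D2:**
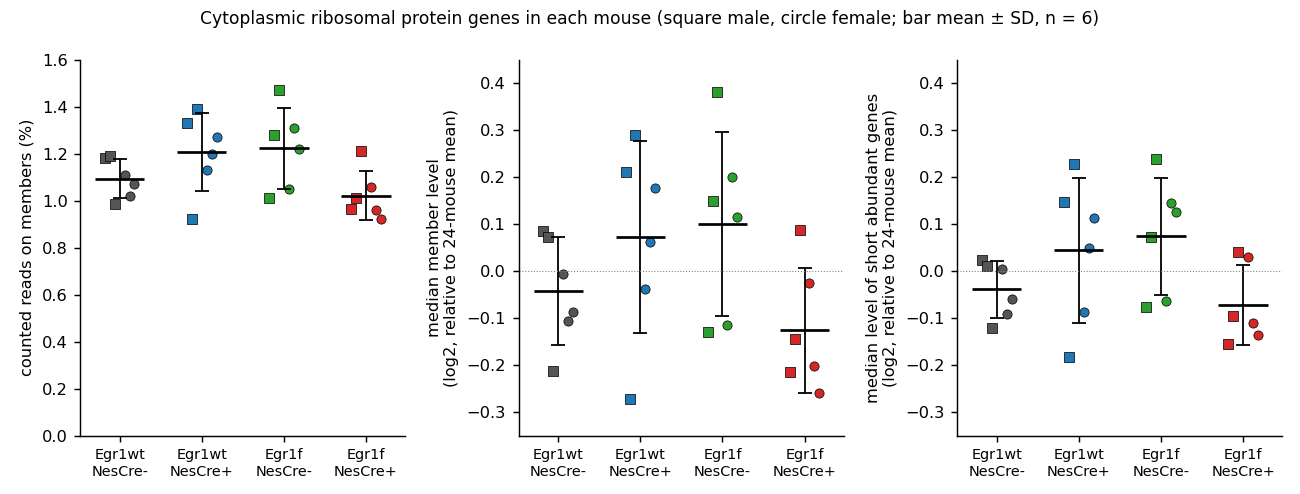
Summed share of counts on the ribosomal protein genes, member level and the level of 801 other short abundant genes in each mouse by genotype, with squares for males, circles for females and bars for the mean ± SD of 6 mice. Egr1cKO mice have the lowest mean share, 1.02%, and the Egr1wt NesCre+ mice reach as low as they do, to 0.923%.

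Other short mRNAs moved with the ribosomal protein genes from mouse to mouse. The reference was the 801 protein-coding genes outside the family with a transcript of at most 1351 bases and a level of at least 19.3 CPM per kb. Over the 24 mice, which share this library set and scaling, the member level had a Pearson r of 0.975 (Spearman's rho 0.975) with the level of these 801 genes, and 0.965 without the 2 mice farthest from the median. Within the 12 Egr1wt mice r was 0.975 and within the 12 Egr1f mice 0.982. With protein-coding genes under 1 kb r was 0.979 and with those of 1 to 2 kb 0.982. With genes of 2 to 4 kb r was 0.419, and with genes of 4 kb and over it was -0.954. These correlations are descriptions of 24 libraries, as are all 22 computed, and carry no test.

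**Figure D3:**
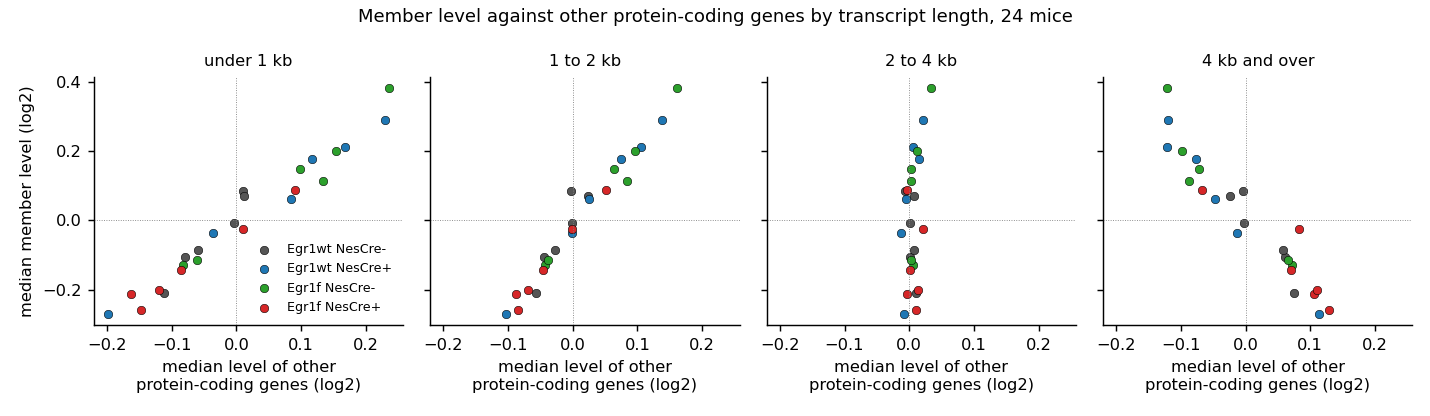
Each panel plots the member level of 24 mice (log2, vertical axis) against the median level of other protein-coding genes in a class of transcript length (log2, horizontal axis), coloured by genotype. The points lie along an upward line for genes under 1 kb (r = 0.979) and of 1 to 2 kb (r = 0.982), scatter for 2 to 4 kb (r = 0.419) and lie along a downward line for genes of 4 kb and over (r = -0.954).

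The genes outside the family whose log2 CPM followed the member level most closely were Atp5h (r = 0.966), a subunit of the mitochondrial ATP synthase, Sod1 (r = 0.957), the cytosolic superoxide dismutase, and Cox4i1 (r = 0.953), a subunit of cytochrome c oxidase, out of 19661 genes and over 24 mice. Their transcripts are 642, 641 and 755 bases long. Among the 77 nuclear genes of the mitochondrial ribosome r was 0.949, and for the elongation factors 0.928.

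Library totals ran from 18025168 to 34955004 counts with a median of 22743950.5, and the member level had r = -0.07 with the log2 total. Egr1 itself, the targeted gene, had lowest, median and highest levels of 4.86, 8.18 and 10.2 CPM in Egr1cKO mice and 67, 83.3 and 147 CPM in Egr1f NesCre- mice, without overlap (log2FC -3.57 ± 0.19 SE, adjusted p = 3.28e-08, edgeR quasi-likelihood test). Several marker sums moved with the member level across mice, with r = 0.54 for the 5 blood genes (29.2 to 95.5 CPM), 0.461 for the 5 oligodendrocyte genes (3050 to 5750 CPM), -0.421 for the 5 astrocyte genes (1840 to 2470 CPM) and -0.376 for the 5 microglia genes (177 to 275 CPM). For the 4 endothelial genes (60.6 to 138 CPM) r was -0.278 over all mice, -0.141 within the Egr1wt and -0.756 within the Egr1f mice. For the 8 neuron genes r was -0.304 over all mice and -0.446 within the Egr1f mice, and for the 5 striatal genes 0.348 and 0.556. In Egr1cKO against Egr1f NesCre- mice, the median sums were 4600 and 4470 CPM for neurons, 4000 and 4920 for oligodendrocytes, 241 and 224 for microglia, 117 and 106 for endothelium, 2330 and 2120 for astrocytes and 48.9 and 65.7 CPM for blood, with overlapping ranges. The share of mitochondrially encoded mRNA had r = 0.616, and Malat1, a nuclear RNA, -0.00. Female replicate 1 of Egr1wt NesCre+ held 2020 CPM of choroid plexus genes, where the lowest mouse held 29.7. The sum was also 1120 CPM in male replicate 2 of Egr1cKO and 319 CPM in male replicate 3 of Egr1wt NesCre+. In male replicates 3 and 2 of Egr1f NesCre- it was 1030 and 799 CPM, and in Egr1wt NesCre- mice 33.1 to 44 CPM. Its r with the member level was 0.259, and 0.505 without the 2 mice farthest from the median. Male replicate 3 of Egr1cKO held 115 CPM of striatal genes, where the lowest mouse held 34.9. The part of these in the member level was not tested. Without male replicate 3 of Egr1cKO the median log2FC of the members for Egr1cKO against Egr1f NesCre-, Egr1wt NesCre+ and all other mice was -0.27, -0.25 and -0.21, and without female replicate 1 of Egr1wt NesCre+ the median for Nestin-Cre alone was 0.15. The first mouse had the highest member level of the Egr1cKO mice, so leaving it out widens these differences by design. The second, at -0.04, was below the median of its genotype, 0.12. Neither is a separate test. In whole tissue fewer cells of a type and less RNA per cell cannot be told apart.

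The first comparison is between floxed mice with and without Nestin-Cre. These differ both in Egr1 and in the Cre transgene, and the 2 cannot be told apart in it. Between 6 Egr1cKO and 6 Egr1f NesCre- mice, with sex as a term, 80 of the 81 tested ribosomal protein genes had a negative log2FC, and the median over the 81 was -0.23, a fold change of 0.855. None passed the thresholds of an adjusted p of at most 0.05 and a fold change of at least 1.2 (edgeR quasi-likelihood test with Benjamini-Hochberg adjustment over 17265 genes), where 0.0232% of all genes did. The smallest adjusted p was 0.242. At an unadjusted p under 0.05, 56 were lower and 0 higher, where 8.16% of all genes tested and 267 of the 801 short abundant genes were lower at that level. DESeq2, run without a filter on low counts, called 0 members and 0.231% of all genes. It also had 56 members under 0.05. The quartiles of the log2FC were -0.26 and -0.19, beside a median SE of 0.10.

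Rpl34, a protein of the large subunit, was the member with the smallest p here (ENSMUSG00000062006, chromosome 3, 130726831 to 130730398 on GRCm38, minus strand). The start region printed above holds a run of 20 pyrimidines, and the other annotated start of Rpl34 one of 6. Its lowest, median and highest levels were 91.6, 116 and 137 CPM in Egr1f NesCre- mice and 83.2, 85.5 and 99.2 CPM in Egr1cKO mice. The groups overlapped, since male and female replicate 1 of Egr1f NesCre-, at 92.7 and 91.6 CPM, were below Egr1cKO male replicate 3 at 99.2 CPM. The log2FC was -0.34 ± 0.09 (SE, adjusted p = 0.242). Rps3a1, on the small subunit near the exit of the mRNA channel (ENSMUSG00000028081, chromosome 3, 86137940 to 86142702, minus strand), was at 221, 261 and 307 CPM in Egr1f NesCre- and 198, 217 and 233 CPM in Egr1cKO mice, with overlap between 221 and 233. Its log2FC was -0.28 ± 0.08 (adjusted p = 0.242).

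Genes known for other roles had like values. Rps6, the substrate of S6 kinase whose phosphorylation is used as a marker of active neurons, was at 128, 150 and 180 CPM in Egr1f NesCre- and 126, 132 and 141 CPM in Egr1cKO mice (log2FC -0.16 ± 0.08, adjusted p = 0.3). Its ranges overlapped from 128 to 141 CPM. Rpl5 and Rpl11, which form the 5S particle that binds MDM2, had log2FCs of -0.21 ± 0.08 and -0.27 ± 0.09. Rps27a, made as a fusion with ubiquitin, went from a median of 160 to one of 127 CPM (log2FC -0.27 ± 0.09), and Rps4x, on the X chromosome, from 207 to 174 CPM (log2FC -0.26 ± 0.08).

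The stalk genes are Rplp0, which anchors the stalk, and the acidic proteins Rplp1 and Rplp2, and their log2FCs were -0.20 ± 0.07, -0.30 ± 0.11 and -0.12 ± 0.10. Rplp1 was at 369, 458 and 569 CPM in Egr1f NesCre- and 331, 348 and 452 CPM in Egr1cKO mice. Rpsa, which is also known as the laminin receptor, was at 307, 401 and 495 CPM in Egr1f NesCre- and 275, 317 and 381 CPM in Egr1cKO mice (log2FC -0.34 ± 0.10, adjusted p = 0.25). The ranges of both overlapped. Rps14 and Rps19, genes tied to failure of red cell production when 1 copy is lost in people, had log2FCs of -0.26 ± 0.10 and -0.28 ± 0.12. Rpl41 and Rpl39, which encode the shortest proteins of the large subunit, were at -0.24 ± 0.13 and -0.18 ± 0.09. Rpl10, one of the last proteins to join the large subunit, was at -0.21 ± 0.08, and Rps3, at the entry of the mRNA channel, at -0.21 ± 0.08.

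The ends of the range are shown by the low members and by the most and the least variable of the members over 10 CPM. Rps10 was the 1 gene with a positive log2FC, 0.01 ± 0.25 at 2.61 CPM, and the sign turned to -0.06 when female replicate 3 of Egr1f NesCre- was left out and to -0.16 without female replicate 3 of Egr1cKO. Rpl13a was at -0.08 ± 0.18. Rpl30, the most variable member over 10 CPM and one that overlaps another gene, was at 23.6, 45.6 and 59.3 CPM in Egr1f NesCre- and 21.8, 30 and 35.7 CPM in Egr1cKO mice (log2FC -0.55 ± 0.18, adjusted p = 0.253). It was near 22 CPM in 1 male of each Egr1wt genotype as well, with 22.4 CPM in Egr1wt NesCre- and 20.6 CPM in Egr1wt NesCre+. Rps15a, the least variable member over 10 CPM, was at 121, 125 and 145 CPM in Egr1f NesCre- and 115, 120 and 128 CPM in Egr1cKO mice (log2FC -0.09 ± 0.06).

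For no member did the CPM ranges of these genotypes fail to overlap (0 of 81, against 0.446% of all genes). The comparison also moved short genes outside the family. The 801 short abundant genes had a median log2FC of -0.16, 707 of them negative, and all genes tested one of -0.01. Of the ribosomal protein genes, 70 were below the median of the short abundant genes. Protein-coding genes under 1 kb had a median of -0.16, those of 1 to 2 kb -0.10, those of 2 to 4 kb -0.00 and those of 4 kb and over 0.11. With an offset that takes the trend on transcript length out of each mouse, the median over the members was -0.09, with 71 negative and 10 positive, and with the same for GC content it was -0.21. Without male replicate 1 of Egr1f NesCre-, one of the 2 low floxed mice, 11 of the members were called lower among 304 genes called in all. That mouse is set apart by its member level, so the count is not a separate test. The part of transcript length in the shift was not tested beyond these values.

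**Figure D4:**
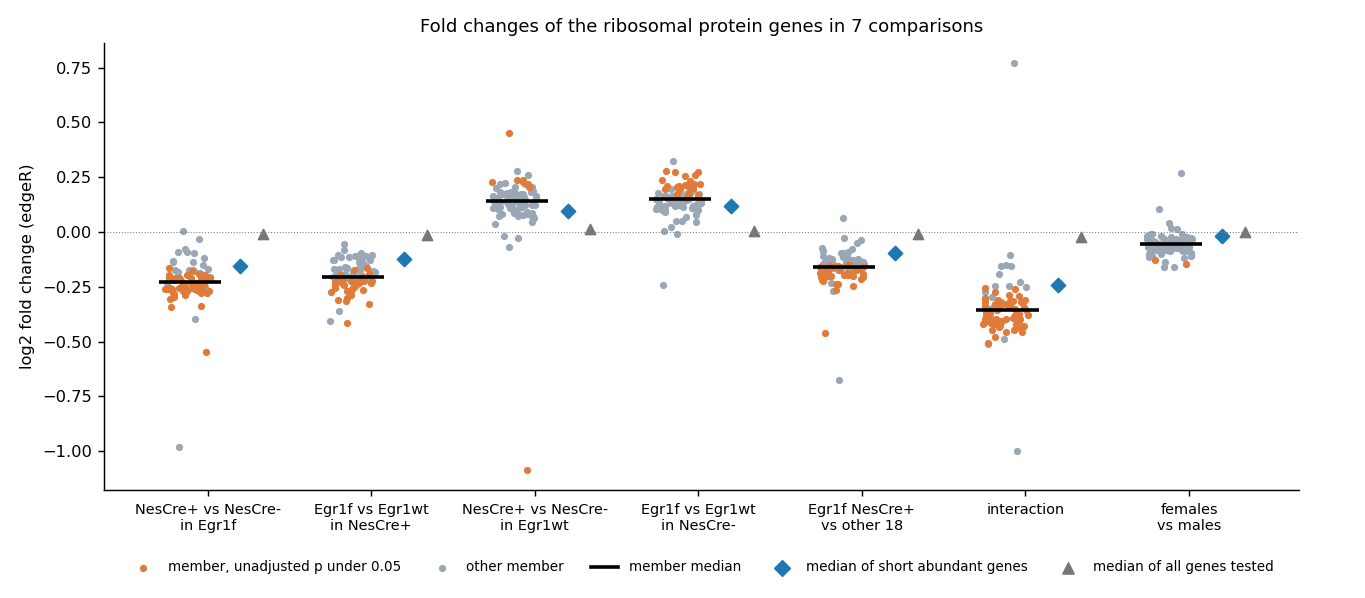
Each point is the edgeR log2FC of 1 ribosomal protein gene in 1 of 7 comparisons, orange at an unadjusted p under 0.05, with the median of the members as a black line, that of the 801 short abundant genes as a blue diamond and that of all genes tested as a grey triangle. The member medians are -0.23, -0.20, 0.14, 0.15, -0.16, -0.36 and -0.05, each farther from 0 than the median of the short abundant genes beside it. In the same order they differ from that median by -0.07, -0.08, 0.05, 0.03, -0.06, -0.12 and -0.03. A stricter reference, not plotted, held 89 genes of at most 977 bases and at least 107 CPM per kb. From its median the members differ by -0.06, -0.07, 0.03, 0.01, -0.06, -0.06 and -0.05.

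Against mice that carry Nestin-Cre but keep Egr1, Egr1cKO mice had a negative log2FC for all 79 genes tested, with a median of -0.20. The edgeR test called 0 of them, against 0.00585% of all genes, with a smallest adjusted p of 0.354, and DESeq2 called 0, against 0.088%. At an unadjusted p under 0.05, 35 were lower, where 5.98% of all genes and 121 of the 801 short abundant genes were. Rpsa was at 316, 408 and 448 CPM in Egr1wt NesCre+ and 275, 317 and 381 CPM in Egr1cKO mice (log2FC -0.33 ± 0.09, adjusted p = 0.354). Rps24, which helps to process the small subunit's RNA (ENSMUSG00000025290, chromosome 14, 24487125 to 24496959, plus strand), was at 176, 231 and 258 CPM and 170, 179 and 214 CPM (log2FC -0.31 ± 0.09, adjusted p = 0.354). In both genes the overlap came from male replicate 2 of Egr1wt NesCre+, with 316 and 176 CPM, and male replicate 3 of Egr1cKO, with 381 and 214 CPM.

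No member was without overlap in this comparison (0 of 81, against 0.385% of all genes). The short abundant genes had a median log2FC of -0.13, with 697 of 801 negative, and the members one of -0.07 with the length offset, where 63 stayed negative and 16 were positive. Without male replicate 2 of Egr1wt NesCre+, the mouse with the lowest member level, 28 members were called lower among 794 genes. Leaving out a control mouse with a low member level widens the difference by design, so this count is not a separate test. This comparison and the one before share the 6 Egr1cKO mice, so that their values are not independent.

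Nestin-Cre on its own was compared between 6 Egr1wt NesCre+ and 6 Egr1wt NesCre- mice. The log2FC was positive for 76 of 80 genes with a median of 0.14, a fold change of 1.1. By edgeR and by DESeq2 0 were called (0% of all genes by edgeR and 0.0585% by DESeq2, smallest edgeR adjusted p of the members 0.754). At an unadjusted p under 0.05, 7 were higher and 1 lower, where 3.33% of all genes and 67 of the 801 short abundant genes were higher. Rpl32, a large subunit protein (ENSMUSG00000057841, chromosome 6, 115805505 to 115808747, minus strand), was at 62, 69.6 and 79.2 CPM in Egr1wt NesCre- and 68.5, 83.5 and 90.7 CPM in Egr1wt NesCre+ mice (log2FC 0.23 ± 0.08, adjusted p = 0.754). Rpl19, the large subunit protein whose mRNA is often used as a control in PCR, was at 41.4, 51 and 55 CPM and 46.9, 58.3 and 69.6 CPM (log2FC 0.24 ± 0.10, adjusted p = 0.754). Both genes overlapped between the genotypes.

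The lower member at an unadjusted p under 0.05 was Rpl24, the weakly counted gene that overlaps Gm28037, at 0.178, 0.708 and 1.02 CPM in Egr1wt NesCre- and 0.166, 0.213 and 0.708 CPM in Egr1wt NesCre+ mice (log2FC -1.08 ± 0.42, adjusted p = 0.754). Rpl23a, which helps nascent chains to leave the ribosome, followed with -0.07 ± 0.15. No member was without overlap (0 of 81, against 0.258% of all genes). The short abundant genes had a median of 0.09 and genes of 4 kb and over one of -0.06, and with the length offset the members' median was 0.03. Without male replicate 2 of Egr1wt NesCre+, the mouse with the lowest member level, 1 member was called, higher, among 229 genes, which is not a separate test.

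The floxed allele on its own was compared between 6 Egr1f NesCre- and 6 Egr1wt NesCre- mice, and 78 of 80 genes had a positive log2FC with a median of 0.15. The edgeR test called 0 (0% of all genes, smallest adjusted p of the members 0.515) and DESeq2 called 0 (0.00583% of all genes). Without adjustment, 22 were higher at p under 0.05, where 5.59% of all genes and 200 of the 801 short abundant genes were. Rpl11, of the 5S particle (ENSMUSG00000059291, chromosome 4, 136028265 to 136053428, minus strand), was at 107, 124 and 136 CPM in Egr1wt NesCre- and 131, 148 and 170 CPM in Egr1f NesCre- mice, overlapping only between 131 and 136 CPM (log2FC 0.27 ± 0.08, adjusted p = 0.515). Rpl37, a zinc finger protein of the large subunit, was at 90.9, 102 and 118 CPM and 106, 125 and 151 CPM (log2FC 0.27 ± 0.09, adjusted p = 0.515).

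The members with a negative log2FC there were Rpl24 at -0.24 ± 0.37 and Rpl13a at -0.01 ± 0.14, whose sign turned in 7 of 12 fits that left out 1 mouse. No member was without overlap (0 of 81, against 0.263% of all genes). The median was 0.12 over the short abundant genes and 0.04 over the members with the length offset. Both comparisons of control genotypes use the same 6 Egr1wt NesCre- mice, and this one also sets the Egr1f against the Egr1wt series of mice.

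**Figure D5:**
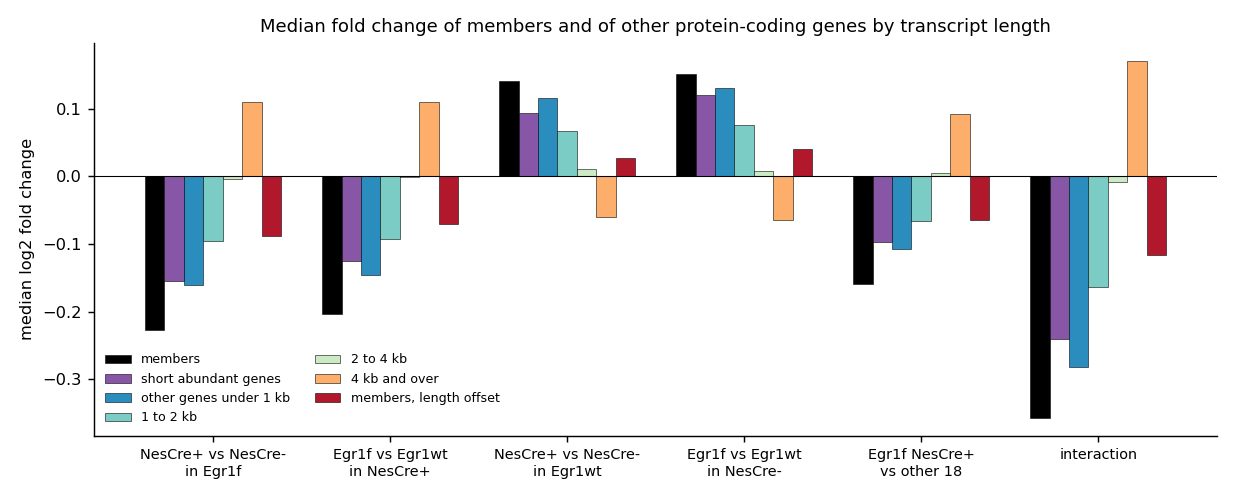
Bars give the median log2FC of the ribosomal protein genes, of the 801 short abundant genes and of protein-coding genes outside the family in 4 classes of transcript length, and of the ribosomal protein genes with the length offset, in 6 comparisons. In Egr1cKO against Egr1f NesCre- mice the medians step from -0.16 under 1 kb through -0.10 and -0.00 to 0.11 at 4 kb and over, and in Egr1f NesCre- against Egr1wt NesCre- mice from 0.13 through 0.08 and 0.01 to -0.06.

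Set against the other 18 mice together, which all keep Egr1, Egr1cKO mice had a negative log2FC for 80 of 81 genes with a median of -0.16. The edgeR test called 0, against 0.00543% of all genes, with a smallest adjusted p of 0.201, and DESeq2 called 0, against 0.115%. There were 35 members lower at an unadjusted p under 0.05, where 7% of all genes and 152 of the 801 short abundant genes were. Rpsa had a log2FC of -0.27 ± 0.09, Rps3a1 -0.22 ± 0.07, Rpl34 -0.24 ± 0.08 and Rps24 -0.24 ± 0.08. The 801 short abundant genes had a median of -0.10, and with the length offset the members had one of -0.06. The mean member level was -0.13 in Egr1cKO, -0.04 in Egr1wt NesCre-, 0.07 in Egr1wt NesCre+ and 0.10 in Egr1f NesCre- mice. Egr1cKO mice were not tested against Egr1wt NesCre- mice alone.

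The interaction of floxP and Nestin-Cre asks whether the floxed allele and Cre together differ from the sum of the shifts that each gives alone. The median interaction over 81 genes was -0.36 on the log2 scale, with 80 negative. The edgeR test called 0, against 0.00543% of all genes, with a smallest adjusted p of 0.15. Unadjusted p values under 0.05 were found for 63 members, all lower, where 9.31% of all genes and 326 of the 801 short abundant genes were lower at that level. DESeq2 called 21 of the members, all negative. It called 335 of 36592 genes (0.916%), a set without the filter on low counts, where edgeR tested 18433. Among the members called were Rpsa, the small subunit genes Rps2, Rps3a1, Rps4x, Rps6, Rps12, Rps20, Rps24 and Rps27a, and the large subunit genes Rpl5, Rpl7a, Rpl11, Rpl14, Rpl17, Rpl26, Rpl27, Rpl27a, Rpl32, Rpl34 and Rpl37. By edgeR the interactions of the 21 ran from -0.51 to -0.31.

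Rpsa had the largest of these values, -0.51 ± 0.14 (adjusted p = 0.15), from medians of 349 CPM in Egr1wt NesCre-, 408 in Egr1wt NesCre+, 401 in Egr1f NesCre- and 317 CPM in Egr1cKO mice. Rpl11 was at -0.48 ± 0.15, from medians of 124, 144, 148 and 118 CPM in the same order. Rpl24 was the 1 gene with a positive value, 0.77 ± 0.64. Protein-coding genes under 1 kb had a median interaction of -0.28, those of 4 kb and over one of 0.17, and the 801 short abundant genes one of -0.24. With the length offset the median over the members was -0.12, and the value for Rpsa was -0.38 and that for Rpl11 -0.24. The offset depends on the annotated length, which is 1938 bases for Rpsa, where the core genes have a median of 774. Protein-coding genes of 1 to 2 kb had a median interaction of -0.16, so less is taken out of Rpsa than out of shorter members.

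The paralogs were set beside their partners in Egr1cKO against Egr1f NesCre- mice. Rpl22 had a log2FC of -0.18 ± 0.07 and Rpl22l1 one of -0.03 ± 0.16. Rps27 was at -0.13 ± 0.09 and Rps27l at -0.10 ± 0.12, and Rpl7 was at -0.26 ± 0.09 and Rpl7l1 at -0.15 ± 0.08. Rpl3 was at -0.22 ± 0.08, and Rpl3l, with 0.279, 0.551 and 1.02 CPM in Egr1f NesCre- and 0.0381, 0.275 and 0.583 CPM in Egr1cKO mice, at -0.98 ± 0.53. None was called, the differences between partners were not tested, and Rpl39l was too low for any test.

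Genes that work with the ribosome were counted by lists. Rack1, which encodes a scaffold on the small subunit, had a log2FC of -0.22 ± 0.08, and Fau, which encodes a ribosomal protein under another name, one of -0.21 ± 0.12 in Egr1cKO against Egr1f NesCre- mice. All 6 elongation factor genes were negative, from -0.23 ± 0.09 for Eef1b2 to -0.05 ± 0.06 for Eef2, with 4 at an unadjusted p under 0.05. Of 11 other genes with terminal oligopyrimidine mRNAs, 9 were negative with a median of -0.11. Tpt1, the translationally controlled tumor protein gene, was at -0.20 ± 0.08, and Pabpc1, the poly(A)-binding protein gene, at 0.02 ± 0.06.

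Genes that build ribosomes were closer to 0. Of 22 ribosome assembly genes 21 were negative with a median of -0.09, and of 14 genes of RNA polymerase I and its factors 9 were negative with a median of -0.04. The genes of the mitochondrial ribosome, which shares no protein with the cytoplasmic one but has mRNAs of a median 1226 bases, had 68 of 77 negative with a median of -0.13. Ribosomal protein retrocopies, intronless pseudogenes that can take reads from their parent genes, had 16 of 18 negative with a median of -0.23. In the list of translation control by mTOR the median was 0.06, with Mtor at 0.23 ± 0.09, Larp1 at 0.17 ± 0.07 and Rps6kb2, a gene of S6 kinase, at -0.46 ± 0.16. These values are without the length offset. In the same comparison all protein-coding genes outside the family had medians of 0.11 at 4 kb and over and -0.16 under 1 kb. The part of transcript length in the values of these lists was not tested. No gene of these lists was called by edgeR in any of the 7 comparisons that use both sexes.

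Between 12 females and 12 males, the members had a median log2FC of -0.05, negative in 75 of 80. The edgeR test called 0, against 0.0701% of all genes, and DESeq2 called 0, against 0.0492%. At an unadjusted p under 0.05, 2 were lower in females, where 2.83% of all genes were, namely Rpl7a at -0.13 ± 0.06 (adjusted p = 0.858) and Rpl12 at -0.15 ± 0.07 (adjusted p = 0.87). The share of counts on the members had lowest, median and highest values of 0.923%, 1.09% and 1.31% in females and 0.923%, 1.19% and 1.47% in males.

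Within each sex the genotypes were compared with 3 mice against 3. In females, Egr1cKO against Egr1f NesCre- gave a median of -0.22 with 0 of 81 members called by edgeR, against 0.288% of all genes, and a smallest adjusted p of 0.0648. There 39 were lower at an unadjusted p under 0.05, where 18.4% of all genes passed it in either direction. So were 166 of the 801 short abundant genes, which had a median of -0.16. With the length offset the members' median was -0.06, with 7 lower at that level. DESeq2 called 6 members lower, Rpl21, Rpl30, Rps2, Rps24, Rps3a1 and Rpsa. It called 738 of 31605 genes (2.34%), a set without the filter on low counts, where edgeR tested 17359. Rpsa, the member with the smallest p there, was at 340, 447 and 390 CPM in the female Egr1f NesCre- and 316, 279 and 275 CPM in the female Egr1cKO mice (log2FC -0.44 ± 0.10, adjusted p = 0.0648). Without female replicate 1 of Egr1f NesCre-, the lowest female of that genotype in member level, 48 members were called lower among 2896 genes, which is not a separate test.

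In males the same comparison gave a median of -0.23 with 0 members called by edgeR, against 0.00569% of all genes, and 0 by DESeq2, against 0.00936%. Only 3 were lower at an unadjusted p under 0.05 (3.04% of all genes in either direction), Rpl34 at -0.35 ± 0.14, Rpl7a at -0.30 ± 0.12 and Rps7 at -0.35 ± 0.16. Of the 801 short abundant genes, 49 were lower at that level, and their median was -0.14. The members' median with the length offset was -0.10. The male median ran from -0.36 without male replicate 1 of Egr1f NesCre- to -0.09 without male replicate 3, the highest mouse. The sexes had nearly the same median, and in the test of the difference between them edgeR and DESeq2 called 0 members (0% of all genes by edgeR and 0.0082% by DESeq2). There 1 member, Rpl24, had an unadjusted p under 0.05, where 4.48% of all genes did.

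For Nestin-Cre alone the medians were 0.16 in females and 0.11 in males, and for the floxed allele alone 0.16 and 0.15. With the length offset they were 0.06 and 0.02, and 0.04 and 0.05. With 1 mouse left out, the male medians ran from 0.03 without male replicate 3 of Egr1wt NesCre- to 0.27 without male replicate 2 of Egr1wt NesCre+ for Nestin-Cre, and from 0.02 without male replicate 3 of Egr1f NesCre- to 0.27 without male replicate 1 of that genotype for the floxed allele. The female medians ran from 0.10 without female replicate 3 to 0.20 without female replicate 1 of Egr1wt NesCre+, and from 0.09 without female replicate 2 to 0.24 without female replicate 1 of Egr1f NesCre-. For Nestin-Cre alone edgeR and DESeq2 called 0 members in either sex, with 0% of all genes called by edgeR in females and 0% in males. DESeq2 called 0.178% and 0% of them. At an unadjusted p under 0.05, 22 were higher in females (7.45% of all genes in either direction) and 1, Rpl35, in males (1.84%). Of the 801 short abundant genes, 65 in females and 9 in males were higher at that level. For the floxed allele both tools also called 0 members in either sex. The shares of all genes were 0.0113% by edgeR and 0.109% by DESeq2 in females, and 0% and 0.00945% in males. At an unadjusted p under 0.05, 22 members were higher in females (8.93% of all genes in either direction) and 1, Rpl11, in males (2.74%). Of the short abundant genes 126 and 25 were. Without female replicate 1 of Egr1f NesCre-, the lowest female of that genotype in member level, 23 members were called higher in females among 1136 genes, which is not a separate test. Tested between the sexes, edgeR and DESeq2 called 0 members for Nestin-Cre (0% of all genes by edgeR and 0% by DESeq2) and 0 for the floxed allele (0% and 0.00273%). For either, 0 members had an unadjusted p under 0.05, where 2.65% and 2.76% of all genes did.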

How the data were processed

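Per the labels and the study's methods, polyA RNA of 24 hippocampi was sequenced paired-end without strand information, and the authors trimmed the reads, mapped them to mm10 and deposited whole-number counts per gene and mouse, not normalized. The submitters' processing notes name Trim Galore 3.8.2 and STAR 2.7.9 on GRCm38, and the counting annotation is not given in the sources used here. Symbols and lengths came from GENCODE M21 for 36493 of 36605 identifiers.

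CPM used edgeR's TMM factors. Differences were tested in R 4.3.3 with edgeR 4.0.16 (filterByExpr, minimum count 10, quasi-likelihood test, Benjamini-Hochberg adjustment) on the mice compared, with sex as a term in the genotype pairs and the interaction. The SE was derived from the log2FC and its F statistic. Alternatives were DESeq2 1.42.0, its size factors, no filter, no fold-change minimum, length and GC offsets (lowess, span 0.3, fitted on other protein-coding genes), 1 shared fit, a replicate block and each mouse left out, and the tests were checked on simulated counts. Named genes follow a rule by role, paralog pair, smallest p and CV, and the members, lists and rule were chosen with earlier results of these data known. Some members and listed genes are not reported here by name.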

Additional observations from a re-analysis of the deposited data

Results flagged for a closer look

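Of 155 groups of 6 mice examined for a single mouse far from the rest, 6 had one by Dixon's test at the 95% level, where chance marks about 1 in 20 groups. Rpl30 was at 22.4 CPM in male replicate 2 of Egr1wt NesCre-, where the nearest of the others was at 39.9 CPM. The same mouse had the highest Rpl3l level of its genotype, 0.713 CPM, with the next at 0.416. The member level minus that of the short abundant genes was -0.0875 (log2) in male replicate 2 of Egr1wt NesCre+, with the nearest mouse at 0.0122. Rpl22l1 was at 9.05 CPM in male replicate 3 of Egr1wt NesCre+, with the next at 5.9 CPM. Rps10 was at 2.03 CPM in female replicate 3 of Egr1f NesCre-, with the nearest at 2.67 CPM. Rps24 was at 214 CPM in male replicate 3 of Egr1cKO, with the next at 185 CPM, and this is the mouse with the highest sum of striatal markers. The cause of these values was not tested.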

How the results depend on the processing

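The median log2FC over the ribosomal protein genes kept its sign under every alternative run for the 7 comparisons of both sexes and the 6 within a sex. For Egr1cKO against Egr1f NesCre- mice it ran from -0.28 to -0.09 over 20 alternatives. The interaction median moved from -0.36 to -0.12 with the length offset. The number of members called depended on the settings. Without a filter on low counts it was 13 (of 808 genes called) for Egr1cKO against Egr1f NesCre-, 3 (of 529) against Egr1wt NesCre+, 3 (of 163) for the floxed allele alone, 42 (of 1173) for the interaction, and 9 (of 1189) in females and 1 (of 76) in males for Egr1cKO against Egr1f NesCre-. DESeq2 called 21 (of 335) for the interaction and 6 (of 738) in females for Egr1cKO against Egr1f NesCre-. With 1 mouse left out, the number ran from 0 to 11 for Egr1cKO against Egr1f NesCre- (11 without male Egr1f NesCre- replicate 1), from 0 to 28 against Egr1wt NesCre+ and from 0 to 1 for Nestin-Cre alone (28 and 1 without male Egr1wt NesCre+ replicate 2). In females it ran from 0 to 48 for Egr1cKO against Egr1f NesCre- and from 0 to 23 for the floxed allele, with the high values without female Egr1f NesCre- replicate 1. The mice behind the high counts had low member levels for their genotype, so these counts are not separate tests. The cause of these changes was not tested, beyond that fewer mice or more genes entered. Rps10 in Egr1cKO against Egr1f NesCre- ran from -0.16 to 0.18 and Rpl13a for the floxed allele from -0.084 to 0.041 with 1 mouse left out.

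With a replicate block the number of members called was 0 in every comparison, beside shares of all genes that are not reported here. The median for Egr1cKO against Egr1f NesCre- was -0.22, while Rps10 turned to -0.068. Mice of the same number did not deviate together (r from -0.15 to 0.15 over 36 pairs, median -0.03). Whether they share more than a number was not tested. Calls of members with shifts near 0.2 on the log2 scale thus rest on the settings, and low members (Rpl24, Rps10, Rpl3l) are limited by their counts.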
